A study of Mus musculus with 23 samples.

Results

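Of 118102 genomic regions with an ATAC-seq peak in mesenchyme of the mouse maxillary prominence, 618 were called open at embryonic day 11.5 (E11.5) only (0.523% of all regions). In ATAC-seq, the Tn5 transposase inserts sequencing adapters into DNA that is free of nucleosomes, so that reads pile up over open chromatin. The maxillary prominence is the embryonic bud from which the upper jaw and much of the palate grow. The 618 regions were chosen by the peak calls themselves: peaks of 9 lists that overlapped by at least 1 bp on chromosomes 1 to 19 and X were merged, and a region is a member when all 3 E11.5 lists and none of the 6 lists from E10.5 and E12.5 called it. Its peak calls, folds and q-values at E11.5 are therefore a description of the choice and carry no test. A region that E10.5 or E12.5 did not call may still be open there below the threshold of the peak caller.

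All embryos were wild-type C57BL/6. At each of the stages E10.5, E11.5 and E12.5, maxillary prominences were dissected, the ectoderm was removed after Dispase II digestion, and freshly prepared mesenchymal cells went into each library. Each stage had 3 biological samples with 1 peak list each. Neither the number nor the sex of the embryos behind each sample was given in the sources used here.

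A promoter is the stretch of DNA at which transcription of a gene starts. Many mammalian promoters lie in stretches rich in the dinucleotide CpG and are open in most cell types, and such promoters usually fill the upper part of an ATAC-seq list. Open regions away from promoters are often enhancers, which differ more between tissues and stages. Zinc finger genes of the KRAB type, whose products bind DNA and many of which silence transposable elements, stand in mouse in large clusters of similar copies. Mesenchyme of the prominence receives FGF, BMP, Wnt and hedgehog signals from the ectoderm that covers it.

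Several of the members with the highest peaks lay at start sites that have near-identical copies elsewhere in the genome. The 4 sequences that follow are RefSeq promoter windows (GRCm38.p6, 250 bases before to 50 after the start site) under 4 of the 10 highest members. They are shown because these copies bear on how the reads of these members can be assigned. Capitals mark the letters CCAAT or their reverse complement ATTGG. The windows lie at chr17:16951286-16951585 on the plus strand (BC002059), chr2:177206447-177206746 on the minus strand (Gm14410), chr2:150217849-150218148 on the plus strand (Zfp937) and chr17:22314793-22315092 on the minus strand (Gm7072).
BC002059: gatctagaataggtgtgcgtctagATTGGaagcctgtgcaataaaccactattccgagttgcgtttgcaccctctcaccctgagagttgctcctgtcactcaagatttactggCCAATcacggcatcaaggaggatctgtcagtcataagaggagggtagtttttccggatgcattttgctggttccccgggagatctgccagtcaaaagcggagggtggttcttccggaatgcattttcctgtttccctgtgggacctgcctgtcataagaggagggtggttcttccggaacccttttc
Gm14410: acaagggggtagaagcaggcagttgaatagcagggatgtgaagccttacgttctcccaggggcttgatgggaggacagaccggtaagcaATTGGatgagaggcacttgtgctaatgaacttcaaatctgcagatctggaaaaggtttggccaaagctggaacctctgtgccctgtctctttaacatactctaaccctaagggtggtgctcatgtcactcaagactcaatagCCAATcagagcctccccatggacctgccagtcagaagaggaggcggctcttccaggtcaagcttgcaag
Zfp937: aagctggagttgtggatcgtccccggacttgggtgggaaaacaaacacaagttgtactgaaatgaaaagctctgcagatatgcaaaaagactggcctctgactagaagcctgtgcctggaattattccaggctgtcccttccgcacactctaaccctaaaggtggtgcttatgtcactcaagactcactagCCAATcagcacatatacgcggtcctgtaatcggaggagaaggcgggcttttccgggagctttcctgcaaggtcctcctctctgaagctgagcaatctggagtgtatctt
Gm7072: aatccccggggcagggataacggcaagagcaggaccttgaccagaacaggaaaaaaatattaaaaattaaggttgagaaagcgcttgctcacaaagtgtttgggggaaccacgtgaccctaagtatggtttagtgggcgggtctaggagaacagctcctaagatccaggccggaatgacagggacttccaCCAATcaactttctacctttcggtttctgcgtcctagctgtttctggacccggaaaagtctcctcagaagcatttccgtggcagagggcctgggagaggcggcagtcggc
The Gm14410 window was 94.3% identical to that of Gm14391, and the Zfp937 window 93.7% identical to that of Zfp442. The Gm7072 window was 90.7% identical to that of Zfp994, and the BC002059 window 86.3% identical to that of Gm6712. The start sites of Gm14391 and Zfp442 lay under no region of any list. That of Zfp994 was called by 2 lists and that of Gm6712 by 6. Among themselves the 4 windows were 58.0% to 65.7% identical. How the authors treated reads that align to several places was not given in the sources used here, so the position of these members among the copies is uncertain.

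A second pair of windows shows the base composition of members beside that of regions that were open throughout. Fkbp7, which encodes a prolyl isomerase of the endoplasmic reticulum, has the member window closest to the members' median composition (chr2:76673049-76673348, minus strand). Atf7, which encodes a basic leucine zipper transcription factor, has the window closest to the median of the regions that all 9 lists called (chr15:102625415-102625714, minus strand). Capitals mark CpG.
Fkbp7: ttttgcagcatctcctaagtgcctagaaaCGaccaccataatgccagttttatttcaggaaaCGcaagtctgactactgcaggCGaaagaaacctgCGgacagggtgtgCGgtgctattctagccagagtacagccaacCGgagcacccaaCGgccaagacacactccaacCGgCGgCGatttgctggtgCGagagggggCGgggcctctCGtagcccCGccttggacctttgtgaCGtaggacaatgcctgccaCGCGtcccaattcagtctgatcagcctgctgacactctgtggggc
Atf7: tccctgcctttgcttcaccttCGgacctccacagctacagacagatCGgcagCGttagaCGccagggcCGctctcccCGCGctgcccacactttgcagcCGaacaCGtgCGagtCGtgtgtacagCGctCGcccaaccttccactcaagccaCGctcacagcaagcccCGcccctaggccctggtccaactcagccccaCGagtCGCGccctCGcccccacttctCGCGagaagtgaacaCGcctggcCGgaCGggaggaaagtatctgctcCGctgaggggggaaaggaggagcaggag
The Fkbp7 window holds 17 CpG and 57.0% GC, and the Atf7 window 25 CpG and 65.0% GC.

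The lists differed in length and strength in ways that stage and sample share. The E11.5 lists held 5682, 24908 and 41457 peaks in samples 1, 2 and 3, against 14886 to 50361 in the other 6 lists. E11.5 samples 1, 2 and 3 had 1, 1 and 3 library runs, against 2 to 4 for each of the other lists. The members made up 11.2% of the regions called in E11.5 sample 1, 2.52% in sample 2 and 1.62% in sample 3. The highest fold over background was 17.9 to 20.4 in the E11.5 lists, against 5.83 to 14.7 in the others. The median fold was 5.06, 4.98 and 3.13 in E11.5 samples 1, 2 and 3, against 2.47 to 3.5 in the others, so that sample 3 lay within their range. The peak names of the E11.5 lists begin with the numbers 227, 239 and 312, and those of the other lists with numbers from 319 to 600. Their meaning was not given, and if they mark separate preparations, E11.5 and its preparation cannot be told apart. As a check of the labelled tissue, 10 of 18 mesenchyme marker genes had a region within 1 kb called in at least 1 E11.5 list, against 5 of 6 pericyte, 8 of 12 neural and glial, 5 of 10 myogenic, 5 of 12 epithelial, 4 of 10 endothelial and 2 of 10 blood markers. The mesenchyme share was thus below the pericyte and the neural and glial shares. In all 3 E11.5 lists such a region was called at 0 of the 18 mesenchyme markers, at 1 pericyte and 1 neural and glial marker, and at 0 markers of the other lists. Mesenchyme markers with none in any E11.5 list included Prrx1, Prrx2, Alx1, Alx4, Dlx1, Pax9 and Col1a1. The share over all genes was not counted beside these markers. E11.5 sample 1, with 5682 peaks, also limits what all 3 lists can call. The marker counts therefore cannot decide on the labelled tissue.

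Members were more numerous than the regions called by all 3 lists of another stage alone. Only 33 regions were called in all 3 E10.5 lists and nowhere else, and 318 in all 3 E12.5 lists and nowhere else. The 618 members were 12.1% of the 5088 regions that all 3 E11.5 lists called. Most near misses were those of E11.5 sample 1, the shortest list. A further 3983 regions were called by E11.5 samples 2 and 3 and missed by sample 1 alone, with no call at the other stages. Without E11.5 sample 1 the rule gives 4604 regions, of which 35.5% lie within 1 kb of a gene boundary. Only 18 regions were missed by sample 2 alone and 108 by sample 3 alone. On the other side of the rule, 480 regions were called by all 3 E11.5 lists and by 1 other list, which was an E10.5 list for 376 of them. Median folds just inside and just outside the rule were close, at 4.70, 7.52 and 4.38 for members in E11.5 samples 1, 2 and 3, and 4.97, 7.74 and 4.81 for those 480 regions.

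The members were strong peaks of samples 2 and 3 and middling peaks of sample 1. Ranked by fold among all peaks of the same list, they had a median percentile of 81.4 in sample 2, 83.7 in sample 3 and 37.9 in sample 1. In sample 1, folds of members ran from 2.64 to 12.7, in sample 2 from 2.98 to 20.4 and in sample 3 from 2.34 to 13.1. The median −log10 q was 4.30, 15.7 and 9.52 in samples 1, 2 and 3, and sample 1 gave the lowest value for 541 of the 618 members. The −log10 q reached 5 in all 3 lists for 212 members and 2 for 589. Across members, the folds ranked alike between the lists (Spearman's rho 0.568 for samples 1 and 2, 0.537 for samples 1 and 3 and 0.695 for samples 2 and 3, over 618 regions that share the same calls). The 3 summits of a member lay within 82 bp of each other at the median, and within 100 bp for 58.4% of members. Few members stood directly beside a peak of the other stages. The nearest E10.5 or E12.5 peak was 15.4 kb away at the median. Such a peak lay within 500 bp of 33 members and within 10 kb of 260 (42.1%). These gaps were not compared with those of other regions.

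**Figure D1:**
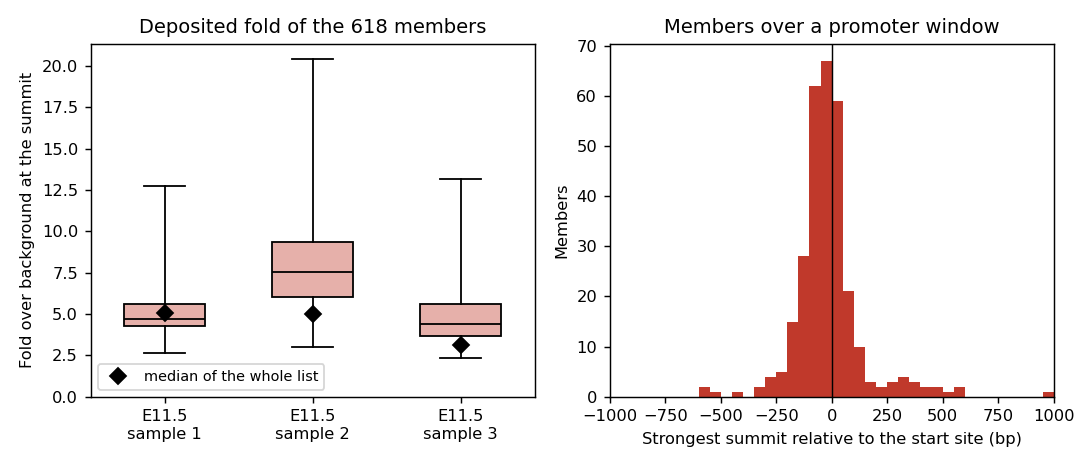
The left panel plots the authors' deposited fold over background at the summit of the 618 members in each E11.5 sample (box, quartiles; line, median; whiskers, lowest and highest), with a diamond at the median fold of the whole list. Members lie above the list median in samples 2 and 3, not in sample 1. The right panel counts the 300 members that cover a RefSeq promoter window by the distance of their strongest summit from the start site in bp, negative values upstream, with 90.7% within 250 bp.

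The members were divided between gene boundaries and distal sites. The strongest summit lay within 1 kb of the start or end of a protein-coding gene for 319 members (51.6%, exact Clopper-Pearson 95% interval 47.6% to 55.6%, which covers counting error only). It lay 1 to 10 kb away for 87 members, 10 to 100 kb away for 136 and farther than 100 kb for 76. The boundary share was lower in the regions of other single stages, with 24.2% of the 33 E10.5-only and 7.55% of the 318 E12.5-only regions. It was higher in regions that were also called elsewhere, with 80.1% of those called by all 3 E11.5 lists and others and 83.5% of those called by all 9 lists. Of all regions 14.6% stood at a boundary. Regions are not replicates of a stage, so these shares are set side by side without a test. Regions called by exactly 3 lists allow a closer comparison. The boundary share was 51.6% for the members, 55.9% where 2 of the 3 lists were from E11.5, 12.9% where 1 was and 10.2% where none was.

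**Figure D2:**
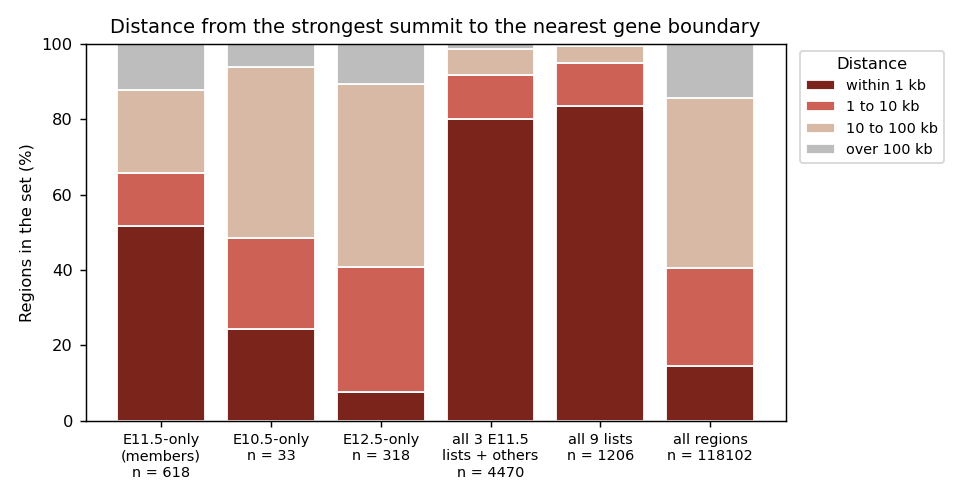
Share of regions (percent, bars from 0) in 4 classes of distance between the strongest summit and the nearest start or end of a protein-coding gene, for the members, for regions called by all 3 lists of E10.5 or of E12.5 only, for regions of all 3 E11.5 lists with other calls, for regions of all 9 lists and for all regions. The members' 51.6% within 1 kb lies between the 7.55% and 24.2% of the other single-stage sets and the 80.1% and 83.5% of the shared sets.

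Of the 319 boundary members, 243 (76.2%) stood on an annotated start site. In all, a RefSeq promoter window lay under 300 members (48.5%), which covered 356 windows, and 30 members covered windows on both strands. The strongest summit lay 24 bp upstream of the start site at the median, with 187 of the 300 summits upstream. Of the members farther than 1 kb from the outer ends of any protein-coding gene, 57 covered a window, 42 of them windows of protein-coding genes and 15 windows of long noncoding RNA genes. No annotated miRNA hairpin lay under a member.

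The highest members at a boundary were those of Mettl14, 2610001J05Rik and Zfp960. Mettl14 encodes the partner of the enzyme that methylates adenosine in messenger RNA, and its member (chr3:123385765-123386306 on mm10) had folds of 5.70, 14.3 and 10.9 in E11.5 samples 1, 2 and 3. The member at 2610001J05Rik (chr6:13871030-13871790) had folds of 7.96, 13.3 and 13.1. Zfp960, a zinc finger gene, had a member (chr17:17063706-17064508) with folds of 10.1, 15.6 and 9.77. Their nearest E10.5 or E12.5 peaks lay 13756, 192671 and 170163 bp away. Gm14410 shared the rank of Zfp960, with folds of 9.04, 18.7 and 9.77, and the Zfp937 member had folds of 7.96, 20.4 and 9.29. None of these 5 had a peak of another stage within 10 kb, and in each the lowest percentile of the 3 was that of sample 1.

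Between 1 and 10 kb, the highest members lay in Gm7072, Zfp948 and Pik3c3. The Gm7072 member (chr17:22314745-22315176) covers the window printed above and had folds of 6.51, 14.8 and 9.13. The member inside Zfp948, a zinc finger gene (chr17:21566353-21567258), had folds of 6.07, 11.7 and 8.33. The member inside Pik3c3 (chr18:30272683-30273150), the gene of the class III phosphoinositide 3-kinase of autophagy, had folds of 5.79, 15.2 and 7.37. From 10 to 100 kb, the highest was the member with the BC002059 window (chr17:16951151-16951766), which ranked first of all 618 with folds of 12.7, 18.4 and 12.5. It lay 53.7 kb from Gm51425, the nearest protein-coding gene by boundary. The member inside Ift74 (chr4:94613990-94615073), which encodes a subunit of the intraflagellar transport complex of cilia, had folds of 7.0, 13.7 and 10.6 and stood on an inner start site, its strongest summit 10 bp upstream. The member 10.8 kb from Trim43c (chr9:88858592-88859230) had folds of 10.5, 19.9 and 10.4, and a promoter window under it was 91.7% identical to one elsewhere.

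Few of the members farther than 100 kb from the start or end of any protein-coding gene had high ranks. The highest of them was on chromosome 10 at chr10:98231673-98232269, 537.0 kb from Ccer1, with folds of 7.96, 11.1 and 6.73. The next was 628.1 kb from Mettl4 (chr17:94094140-94094699), with folds of 9.40, 9.94 and 4.65. The other lay inside Pde4d, the gene of a cyclic AMP phosphodiesterase, 133.4 kb from its nearest end (chr13:109821978-109822958), with folds of 5.89, 9.56 and 7.94. Of the 100 highest members, 69 were boundary members and 5 were farther than 100 kb. The median percentile over the 3 lists was 82.3 for boundary members, 71.0 for those at 1 to 10 kb, 73.4 at 10 to 100 kb and 76.7 farther than 100 kb, so it was highest at boundaries and did not fall with distance beyond them.

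Several of the highest members were at zinc finger genes, a grouping made after the values were seen. Of the 319 boundary members, 16 were at genes named Zfp, Zscan or Zkscan (5.02%), against 2.99% of boundary regions called by all 3 E11.5 lists and others, 2.58% of those called by all 9 lists and 2.31% of all boundary regions. The counts are a description without a test. A window at least 70% identical to another window of the genome lay under 15 of the 300 members with a window (5.00%). A copy of at least 90% identity was found for 5. Copies were searched for member windows only, so the share over all windows is unknown. These counts therefore do not set the members apart from other promoters.

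Promoters of members held less GC and fewer CpG than promoters that were open at other stages too. The median GC of the 356 member windows was 57.0% (quartiles 51.9% and 62.7%), against 63.7% in the 4672 windows of regions called by all 3 E11.5 lists and others and 65.0% in the 1469 windows of regions called by all 9 lists. The median over all 32585 RefSeq windows was 53.0%. The number of CpG per window was 17 at the median in members, against 24 and 25 in those sets and 7 over all windows. Leaving out member windows with a near-copy changed neither median (57.0% GC and 17 CpG in 339 windows). These are medians side by side, without a test. The members thus lay between promoters open throughout and promoters with no region, whose median was 47.7% GC. Among regions called by exactly 3 lists, the median GC was 57.0% for the members, 61.3% where 2 of the lists were from E11.5, 63.0% where 1 was and 59.0% where none was. The median number of CpG in these 4 sets was 17 for the members, 22 where 2 lists were from E11.5, 18 where 1 was and 8 where none was, so on CpG the members lay above the set with none and close to the set with 1.

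Short sequence motifs differed between members and shared promoters. Each motif was searched on both strands of the 300-base windows, and values are given for the members, for windows of all 3 E11.5 lists and others, for windows of all 9 lists and for all windows, in that order. The SP/KLF motif GGGCGG was found in 62.6%, 74.3%, 77.5% and 35.9%. The TFAP2 motif GCCNNNGGC was found in 18.0%, 27.6%, 28.7% and 16.7%. These motifs are rich in GC, and both were less frequent in members than in shared promoters. The NFY motif CCAAT was found in 43.8%, 46.7%, 50.9% and 37.6%. The ETS motif CCGGAAG was found in 22.8%, 19.3%, 16.4% and 8.92%. The forkhead motif TGTTTAC, at 5.62%, 1.80%, 1.77% and 3.67%, and the homeodomain motif TAATTA, at 3.65%, 1.48%, 0.545% and 5.26%, hold more A and T and were more frequent in members than in shared promoters. Of 23 motifs searched, 14 were more frequent and 9 less frequent in member windows than in windows of all 3 E11.5 lists and others. The others were the E-box CANNTG with its TWIST-type forms CATCTG or CATATG, AP-1 TGANTCA, TEAD GGAATG, SOX ACAAAG and MEIS TGACAG. Also searched were RUNX TGTGGT, CTCF AGGGGGC, YY1 AAGATGGC and the nuclear receptor site AGGTCA. Given here by name without letters are the GATA motif, the direct repeat of that site and the MEF2, paired homeodomain, NRF1 and NFI motifs. The fixed letters of the MEF2 motif are mostly A and T. Unlike the forkhead and homeodomain motifs, the MEF2 motif was less frequent in members than in shared promoters, at 1.12%, 2.80%, 2.86% and 3.71%. The 2 E-box forms are also E-boxes, the direct repeat holds the single site, and the SP/KLF, ETS and NRF1 motifs contain CpG, and the NFI motif can share letters with the NFY motif. No test was made over windows, and a match is a description of letters, not of a bound factor.

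To ask whether this composition was particular to the members, the other promoters of each list were measured with the members left out. This measure was added after the members' composition was seen. The median GC of called promoters was 63.3%, 62.7% and 62.3% in E11.5 samples 1, 2 and 3, against 64.0%, 63.7% and 64.0% at E10.5 and 63.7%, 63.7% and 65.0% at E12.5. The groups did not overlap. The E11.5 lists averaged 62.8% ± 0.509 and the other lists 64.0% ± 0.516 (SD, n = 3 and 6), a difference of -1.22 percentage points (exact permutation test over 84 assignments of lists, two-sided, p = 0.0238, the smallest it can give). With the other 2 per-list measures given further on it makes a family of 3, in which the Benjamini-Hochberg adjusted p of each exact permutation test was 0.0476. The difference was -2.28 points where only peaks whose −log10 q reached 5 were counted and -2.0 points with the 5000 strongest peaks of every list. The other promoters that the E11.5 lists called thus also had lower GC. The highest fold was 17.9 to 20.4 in the E11.5 lists and 5.83 to 14.7 in the others. Within E11.5, sample 3 had the lowest GC and also the lowest maximum fold (17.9) and median fold (3.13). The part of peak strength in the GC difference was not tested.

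**Figure D3:**
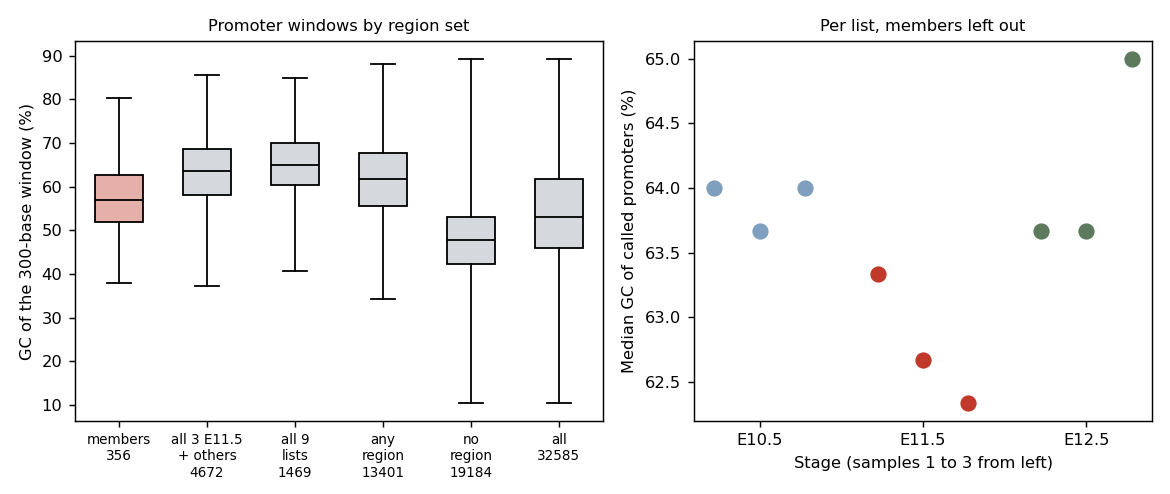
The left panel plots the GC percentage of 300-base promoter windows for the members and 5 other sets (line, median; box, quartiles; whiskers, lowest and highest; number of windows under each set). The right panel plots the median GC percentage of the promoters each list called with the members left out, 1 point per sample, on an axis that does not start at 0. All 3 E11.5 points, at 62.3% to 63.3%, lie below all 6 others.

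Members were frequent on chromosome X. Of the 618 members 46 were on X (7.44%), against 1.26% of all regions, 0 of the 33 E10.5-only regions, 1 of the 318 E12.5-only regions and 2.53% of the regions called by all 3 E11.5 lists and others. Of these 46, 37 were boundary members, 11.6% of all boundary members. Among regions called by exactly 3 lists, the X share was 7.44% for the members, 3.36% where 2 lists were from E11.5, 1.11% where 1 was and 0.899% where none was. The highest X member (chrX:107816106-107816582) stood at 2610002M06Rik, with folds of 4.70, 13.2 and 8.97. The next stood at Fundc1, which encodes a mitophagy receptor (chrX:17571551-17572427), with folds of 7.23, 12.6 and 8.01, and at Gemin8, which encodes a component of the SMN complex (chrX:166170269-166170860), with folds of 6.81, 11.4 and 8.81. X members had a median percentile of 85.0, against 76.0 for members on the autosomes. Their nearest peak of another stage was 67.5 kb away at the median, against 13.9 kb. X held only 1.26% of all regions, and this gap was not compared with the spacing of peaks on X.

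Other X regions also made up a larger share of the calls at E11.5 on average. This measure was added after the chromosomes of the members were seen. With the members left out, X held 2.50%, 2.50% and 1.56% of the regions called in E11.5 samples 1, 2 and 3, against 1.45%, 1.66% and 0.339% at E10.5 and 0.623%, 1.19% and 1.05% at E12.5. E11.5 sample 3 lay below E10.5 sample 2, so the groups overlapped. The means were 2.19% ± 0.543 at E11.5 and 1.05% ± 0.497 in the other lists (SD, n = 3 and 6; difference 1.14 percentage points, exact permutation test, two-sided, p = 0.0476). Among boundary regions alone the shares were 2.44%, 3.23% and 2.76% at E11.5, against 0.641% to 2.24% in the others, with no overlap (exact p = 0.0238, the smallest possible). Over all regions, leaving out E10.5 sample 2 gave an exact p of 0.0357 and leaving out any other list an exact p of 0.0714 or 0.143. The same measure over each of the 20 chromosomes gave an unadjusted p under 0.05 for 6 of them, and X did not pass after adjustment over the 20 (exact permutation test, Benjamini-Hochberg adjusted p = 0.159, with 0.159 the lowest of all). The ratio of means was 2.08 for X, and from 0.852 to 1.26 for the other chromosomes.

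Regions near members also made up a larger share of the calls at E11.5 on average. For each list, the share of its called regions that lay within 100 kb of a member was taken, with the members left out. It was 6.99%, 6.46% and 5.56% in E11.5 samples 1, 2 and 3, against 5.79%, 5.52% and 5.28% at E10.5 and 4.94%, 5.19% and 5.29% at E12.5. E11.5 sample 3 lay below E10.5 sample 1, and the other E11.5 samples lay above all other lists. The means were 6.34% ± 0.722 at E11.5 and 5.34% ± 0.291 in the other lists (SD, n = 3 and 6), a difference of 0.998 percentage points (exact permutation test over 84 assignments, two-sided, p = 0.0476). Among boundary regions alone the difference was 0.690 points (exact p = 0.0238), among the rest 0.725 points (exact p = 0.0714). Within 20 kb it was 0.126 points and did not pass (exact p = 0.119). It was 1.58 points where only peaks whose −log10 q reached 5 were counted and 1.83 points with the 5000 strongest peaks of every list (exact p = 0.0238 each). Leaving out E10.5 sample 1 gave an exact p of 0.0357, and leaving out any other list an exact p of 0.0714 or 0.143, with the E11.5 mean still the higher. With an E11.5 list left out, 0.0714 is the smallest p possible. These p-values reflect only the spread between the 9 samples. The members came from the true E11.5 calls and were not chosen anew for each assignment. Near misses of the rule also stayed among the regions counted. The p-values therefore cannot decide whether the neighbourhood share is more than an effect of how members were chosen.

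**Figure D4:**
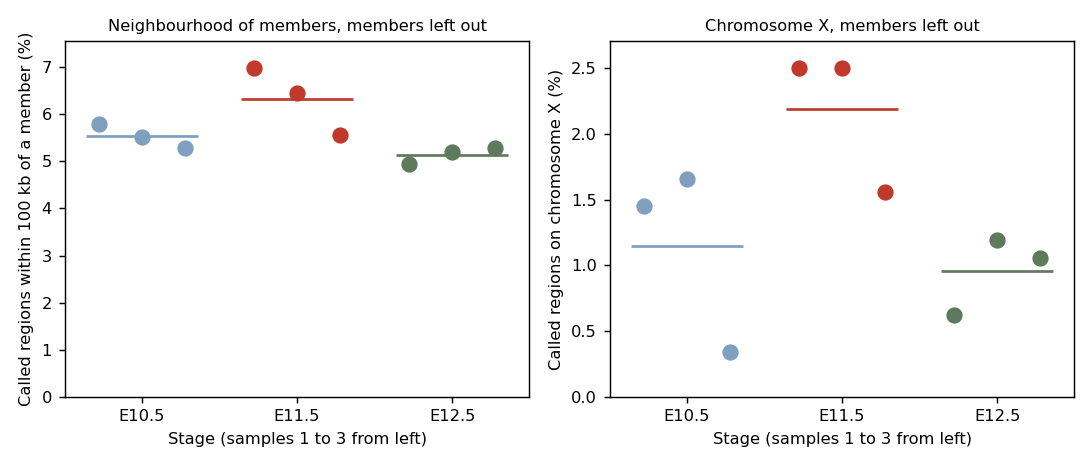
Percent of the regions called in each list, members left out, that lie within 100 kb of a member (left) and on chromosome X (right), by stage, with 1 point per sample and a line at the mean of each stage, both axes from 0. The E11.5 samples 1 and 2 are the highest points in both panels, and sample 3 overlaps the E10.5 points.

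The members were spread over many genes. Of the 618, 542 lay within 100 kb of the start or end of a protein-coding gene. They were assigned to 533 genes, 9 of which had 2 members and none more. These 9 were Ptgs2 (the inducible cyclooxygenase), Xcl1 (a chemokine), Bmf (a BH3-only cell death protein), Fez1 (an adaptor of axonal transport), Gpr85 (an orphan receptor), Pabpc5 (a poly(A)-binding protein), Epcam, Fam102b and Gm51425. Of 352 genes on 18 lists of signalling, patterning, matrix and cell type genes that had any region, 17 had a member (4.83%), against 3.07% of all 17337 genes with a region. The lists were chosen with earlier results of these data known, and this count carries no test.

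The listed genes with a member encode ligands, receptors, inhibitors, matrix proteins and transcription factors. Each member was assigned by the nearest start or end of a protein-coding gene alone. The distance ran from 0.105 kb for Acvr2a to 96.6 kb for Isl1. In the BMP and TGF-beta list, 3 of 34 genes had a member: Gdf6 (a BMP family ligand), Acvr2a (an activin type II receptor) and Ltbp1 (which binds latent TGF-beta). The Gdf6 member lay 73.4 kb away and covered the promoter window of a long noncoding RNA gene, 4930412C18Rik. In the Wnt list 3 of 40 had one: the receptor gene Fzd4 and Nkd1 and Cxxc4, both inhibitors that act on Dishevelled. The Fzd4 member lay 47.65 kb from Fzd4, inside another gene, Tmem135. Of 28 guidance and adhesion genes, Epha7, Robo1 and Sema3a had one, and of 27 matrix genes Col5a2 and Sparc. The other lists gave at most 1 gene each: the ligand gene Fgf10 of 22 FGF genes, Eya1 of 41 patterning genes, Trps1 of 24 skeletal genes, Crabp2 of 17 retinoic acid genes, Isl1 of 12 neural and glial markers and Epcam of 12 epithelial markers. There were 0 members at the 18 mesenchyme markers, the 25 neural crest and mesenchyme genes, the 14 hedgehog genes, the 27 cell cycle genes and the blood, endothelial, myogenic and pericyte markers.

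Epcam and Epha7 met the rule for values. Epcam, an adhesion protein of epithelia, had members 64.2 kb and 22.4 kb away (chr17:87571373-87571861 and chr17:87613249-87614021). Their folds in E11.5 samples 1, 2 and 3 were 3.84, 7.0 and 4.38 for the farther and 5.46, 7.80 and 5.55 for the nearer. Both lay nearest to Epcam by boundary alone, and no link to its activity was measured. The member 28.9 kb from Epha7, a receptor for ephrin-A ligands (chr4:28783963-28784350), had folds of 5.43, 12.8 and 5.93 and had rank 85. The other 15 listed genes had members with ranks from 173 to 580.

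A further test asked whether the other regions of member genes were called more often at E11.5. Calls were summed per gene with the members left out, and compared with the number expected from the length of each list and the number of lists that called each region. Of the 533 genes, 197 had the 5 or more other regions that the test needs. A call by any list, also an E11.5 list, counts a region towards these 5. A gene can therefore reach the test through its E11.5 calls. Btbd3, Robo1, Cxxc4 and Fgf10 had more calls at E11.5 and 0 had fewer (limma, Benjamini-Hochberg adjusted p under 0.05 over all 7327 genes tested). Over all tested genes 50 had more calls (0.682%) and 4 had fewer (0.0546%), beside which the 4 of 197 member genes are 2.03%. At an unadjusted limma p under 0.05, 22 of the 197 had more calls and 12 fewer, against 409 and 508 of all 7327. The median difference between E11.5 and the mean of the other stages was -0.05 for member genes and -0.25 for all genes tested, in units of the expected spread.

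E11.5 sample 2 carried each of the 4 genes. For Btbd3, which encodes a BTB domain protein known from the orientation of dendrites, that sample called 7 of 7 other regions where 1.29 were expected, and samples 1 and 3 called 1 each against 0.183 and 2.03 expected. The E10.5 lists called 1, 0 and 0 and the E12.5 lists 0, 1 and 0. The difference was 3.47 ± 0.767 (SE; limma adjusted p = 0.00756). For Robo1, the receptor of Slit guidance ligands, E11.5 samples 1, 2 and 3 called 1, 8 and 2 of 12 regions against 0.157, 1.54 and 2.88 expected, against 0 in every E10.5 list and 0, 3 and 0 at E12.5 (3.40 ± 0.753 SE, adjusted p = 0.00756). For Cxxc4 the E11.5 calls were 0, 7 and 5 of 8 regions against 0.195, 1.64 and 2.72 expected, against 0, 1 and 0 at E10.5 and 0, 1 and 0 at E12.5 (3.27 ± 0.745 SE, adjusted p = 0.00873). For Fgf10, a mesenchymal ligand for epithelial FGF receptors, they were 0, 9 and 2 of 9 regions against 0.284, 1.75 and 2.72 expected, against 0, 1 and 1 at E10.5 and 1, 0 and 1 at E12.5 (2.92 ± 0.792 SE, adjusted p = 0.0438). Cxxc4 was above expectation in samples 2 and 3, and the others in sample 2 or in samples 1 and 2. Without E11.5 sample 2, 0 member genes passed (Robo1 limma adjusted p = 0.799, Cxxc4 limma adjusted p = 0.861). The other regions of Btbd3 and Fgf10 were then too few to be tested. Btbd3 and Fgf10 thus reached the test only through the list in which they were high. Their adjusted p-values cannot serve as support for more calls at E11.5. When only peaks whose −log10 q reached 5 were counted, 0 of all genes passed. With gene boundaries within 20 kb, or with regions called by 2 or more lists alone, 0 member genes passed. Fgf10 also missed the threshold without any 1 of the 6 E10.5 and E12.5 lists (limma adjusted p = 0.0884 to 0.149), and Cxxc4 without E12.5 sample 2 (limma adjusted p = 0.0648).

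**Figure D5:**
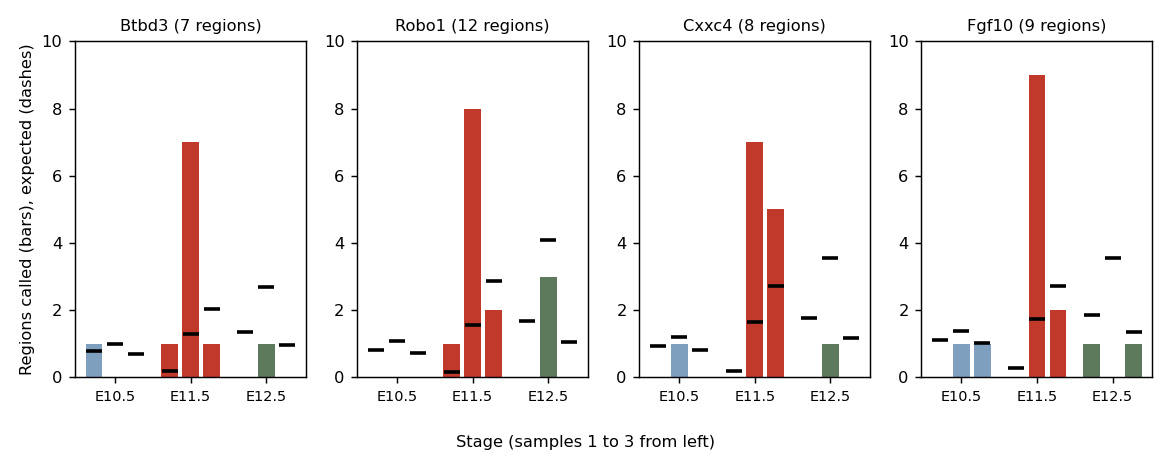
Number of regions called in each list (bars from 0) and number expected from the list and region model (dashes) for the 4 member genes that passed the gene test, members left out, by stage with samples 1 to 3 from left. The tallest bar of every gene is E11.5 sample 2, with 7 regions for Btbd3, 8 for Robo1, 7 for Cxxc4 and 9 for Fgf10.

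The members of these 4 genes were weaker than the strongest ones. The Btbd3 member (chr2:138278391-138278774) stood on an inner start site of the gene, 8.94 kb from its nearest end, with folds of 4.02, 4.02 and 4.49. Its promoter window is shown because it lies at the AT-rich end of the members, with 44.7% GC and 6 CpG, which are in capitals (GRCm38.p6, chr2:138278243-138278542, plus strand).
Btbd3: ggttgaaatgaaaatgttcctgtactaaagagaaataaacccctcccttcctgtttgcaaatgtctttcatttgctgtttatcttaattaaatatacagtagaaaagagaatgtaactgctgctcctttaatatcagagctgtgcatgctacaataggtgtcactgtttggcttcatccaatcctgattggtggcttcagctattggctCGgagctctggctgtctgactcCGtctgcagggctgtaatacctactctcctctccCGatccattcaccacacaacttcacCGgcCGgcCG
The Robo1 member (chr16:72027561-72028307) lay 124 bp from a boundary of the gene, with folds of 4.16, 8.62 and 4.49. The Cxxc4 member (chr3:134146484-134147104), 89.4 kb away, had folds of 5.43, 7.69 and 3.36. The Fgf10 member (chr13:118886065-118886700), 93.7 kb away, had folds of 4.70, 5.15 and 3.20. In Btbd3 all 3 folds were below the members' median of samples 1 and 2 and just above that of sample 3, and in Fgf10 all 3 were at or below it.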

How the data were processed

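Per the labels, each of the 9 biological samples (23 library runs) has 1 deposited peak list, on mm10. Bowtie2, deepTools 3.3.1 and MACS2 are named in the submitters' processing notes, without roles. Paired-end alignments and removal of blacklisted regions are named in the labels. The MACS2 threshold, read filters and any shift for the transposase offset were not given in the sources used here. These lists give the authors' fold over background at each summit (a ratio) and the −log10 q of each peak. Both served to rank, filter or describe peaks inside 1 list. Folds and −log10 q were also set side by side between lists, without a test. Read counts are not part of the lists, so the depth of sequencing is unknown and no read-level precision can be given.

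Peaks were merged across lists where they overlapped by at least 1 bp, and 1 peak outside chromosomes 1 to 19 and X was left out. Regions were assigned to the nearest start or end of a protein-coding gene within 100 kb, in RefSeq's annotation of GRCm38.p6, which has the coordinates of mm10 and here carries no strand or exons. Exons, introns and untranslated regions were therefore not separated. Named members are the 3 with the highest median fold percentile in each of 4 distance classes. Named genes are member genes that passed the gene test, and listed genes with 2 members or a member among the 100 highest. The 3 chromosome X members, the genes with 2 members, the windows printed and the zinc finger group were chosen after their values were seen. The members, lists and tests were chosen with earlier results of these data known.

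Shares per list were compared with exact two-sided permutation tests. For genes with at least 5 non-member regions called by 1 to 8 lists, calls minus the calls expected from a conditional logit model of list and region, over the root of the expected variance, were tested with limma 3.58.1 (R 4.3.3) and Benjamini-Hochberg adjustment at 0.05. The pooled variance has 189.4 prior degrees of freedom, so the spread of a single gene between its lists adds little to its p-value. The procedure was tested on simulated calls. Other thresholds, distances, list lengths and sample subsets were tried. Python 3.11.15 with NumPy 2.4.6, pandas 2.3.3, SciPy 1.17.1, Matplotlib 3.10.9 and Biopython 1.88 were used. Intervals and permutation p-values cover counting error and the spread between samples.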

Additional observations from a re-analysis of the deposited data

How the results depend on the processing

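The number of members was 449 to 686 under 5 changes of threshold, list length, merging and overlap, and 618 in the report. Leaving out 1 list gave 638 to 4604, with 4604 without E11.5 sample 1, the shortest list, and 656 and 729 without E11.5 samples 2 and 3. The boundary share was 35.5% to 55.6% with 1 list left out. It was 72.3% where only peaks with a −log10 q from 5 up were kept, 76.2% with the 5000 peaks of highest −log10 q in every list and 46.1% for boundaries within 500 bp. The direction of all 3 per-list measures was kept in every alternative run. The neighbourhood difference did not pass within 20 kb (0.126 points) or for distal regions alone (0.725 points), and ranged from 0.671 to 1.39 points with 1 list left out (exact p 0.0357 to 0.143). Without an E11.5 list the smallest exact p possible is 0.0714, so those alternatives cannot pass. Chromosome X did not pass for distal regions alone (1.07 points, exact p = 0.0714), and gave 0.978 to 1.45 points with 1 list left out. Promoter GC gave -1.5 to -1.0 points with 1 list left out.

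Calls per gene beyond those expected were compared between same-numbered samples, with stage means removed. No pair correlated above 0.1 (from -0.0802 to 0.0253). Differences in the length of whole lists are taken out before this check, so it cannot decide whether same-numbered samples share a preparation. With the replicate block, that is, stages permuted within the sample number, the smallest p possible is 0.0741 over 27 assignments. All 3 measures gave it, with unchanged differences of 0.998, 1.14 and -1.22 points. With sample number as a block in the gene test, 53 genes had more and 4 fewer calls, and 4 and 0 member genes.

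Gene test counts depended on the settings. Genes with more calls numbered 50 in the report, 6 with 10 or more regions per gene, 79 with 3 or more, 6 within 20 kb, 6 with regions called by 2 to 8 lists, 0 with the −log10 q from 5 up and 0 with 5000 peaks per list, and 4 to 82 with 1 list left out. Genes with fewer calls numbered 4 in the report, and 0, 4, 1, 1, 0 and 0 under the same 6 settings and 0 to 4 with 1 list left out. Member genes with more calls numbered 4 in the report, 1, 4, 0, 0, 0 and 0 under the 6 settings and 0 to 6 with 1 list left out. The adjusted p with limma ranged up to 0.0472 for Btbd3, 0.799 for Robo1, 0.861 for Cxxc4 and 0.511 for Fgf10. Fgf10 passed in 4 of the 12 alternatives that tested it. Depth sets which weak peaks are called, and it is unknown here.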
